A study of Mus musculus with 7 samples.

Results

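The 5 receptors described here, Ffar1, Ffar2, Ffar3, Ffar4 and Gpr119, sense fatty acids and other lipids at the cell surface, and were taken by gene symbol from the gene and transcript tables of mouse pancreatic islets. All 5 were among the 23465 genes named in the gene tables of the 2 libraries. Each had a UMI (unique molecular identifier, which counts molecules) in both libraries. Islets of female C57BL/6 mice aged 10 weeks were dissociated into single cells, and RNA was captured in droplets by a modified 5' protocol, in which dNTP was added and extension steps were lengthened. Insulin cDNA was removed with a Cas9-based panel, and the cDNA was read on a Nanopore sequencer, whose long reads can span a transcript. The 2 libraries, replicates 1 and 2, carry no treatment or engineered allele, and nothing in the labels says that they came from separate animals. The p-values therefore measure only how far the differences between cell types vary between these 2 libraries. The 5 other samples of the series, in the other 3 groups of protocols, were not analysed here.

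The proteins are G protein-coupled receptors. FFAR1 and FFAR4 bind medium- and long-chain fatty acids, FFAR2 and FFAR3 bind the short-chain fatty acids that gut bacteria make, and GPR119 responds to lipid amides and monoacylglycerols such as oleoylethanolamide. In islets, FFAR1 is known for raising glucose-stimulated insulin secretion through Gq, and GPR119 for raising cAMP through Gs.

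Replicate 1 held 4814 kept cells with 11012364 UMIs in all (median 2110 a cell), and replicate 2 held 1093 with 12092393 (median 9949). Only 5 cell barcodes were shared by kept cells of both libraries. The authors' cell types were used: 961 and 239 alpha cells, 2284 and 435 beta cells, 965 and 318 delta cells, and 283 and 41 PP cells (the pancreatic polypeptide type), with smaller numbers of endothelial, stellate and macrophage cells. In all 4 endocrine classes the summed markers of the class's own list were the highest of the marker lists in both libraries. The delta class also held beta markers at 50801 and 44561 CPM (UMIs of a gene in 1000000 UMIs of the cells), and PP markers at 57572 CPM in replicate 2. The class named endothelial held duct markers at 16126 CPM against 2613 CPM of endothelial markers in replicate 2, and alpha markers (19420 and 22059 CPM) exceeded stellate markers (18529 and 8465 CPM) in the stellate class. Because the authors' clusters were made from the same gene counts, the tests between types are circular in part.

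Ffar1, Ffar3 and Ffar2 are neighbours on chromosome 7. On GRCm38, the build that mm10 names, Ffar2 (ENSMUSG00000051314) covers chr7:30818348-30823775, Ffar3 (ENSMUSG00000019429) chr7:30854330-30856178 and Ffar1 (ENSMUSG00000044453) chr7:30857390-30861564, all on the minus strand. Only 1211 bases lie between Ffar1 and Ffar3, its downstream neighbour, and 30554 bases between Ffar3 and Ffar2. Ffar4 (ENSMUSG00000054200) covers chr19:38097071-38114263 on the plus strand, 2365 bases from the end of Rbp4, a delta cell marker on the opposite strand. Gpr119 (ENSMUSG00000051209) covers chrX:48667979-48674478 on the minus strand. In 4 of the 5 genes the coding sequence of the main transcript lies in 1 exon, and in Ffar4 it spans 3. How reads that span neighbouring genes were counted, and whether strand was used, is not given here by any label or header. A transcript that carries both Ffar1 and Ffar3 has been described in a beta cell line, so their counts are uncertain to that extent. The coding sequences are not near copies: the closest pair, Ffar2 and Ffar3, had 55.4% identical aligned bases, Ffar1 and Ffar3 had 47.9%, and the longest run of identical bases in any pair was 13.

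The bases just upstream of each main transcript's start are shown because the neighbours Ffar1 and Ffar3 shared a beta-high pattern, Ffar4 had the opposite one, and Ffar2 and Gpr119 had others. All 5 genes matched an entry among RefSeq promoters on GRCm38.p6, and the bases shown are those promoters, trimmed to the bases before the GENCODE M21 start, and are written 5′ to 3′ on the gene's strand. Capitals mark matches on either strand to TAAT (the core of homeodomain sites, which Pdx1 and Nkx6-1 bind), TGACGTCA (the cAMP response element), GGGCGG (the GC box) or TATAAA.
Ffar1 upstream, chr7:30861565-30861720, minus strand: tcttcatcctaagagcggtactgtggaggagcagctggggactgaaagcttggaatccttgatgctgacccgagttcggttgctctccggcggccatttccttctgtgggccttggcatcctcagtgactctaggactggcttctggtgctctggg
Ffar3 upstream, chr7:30856179-30856428, minus strand: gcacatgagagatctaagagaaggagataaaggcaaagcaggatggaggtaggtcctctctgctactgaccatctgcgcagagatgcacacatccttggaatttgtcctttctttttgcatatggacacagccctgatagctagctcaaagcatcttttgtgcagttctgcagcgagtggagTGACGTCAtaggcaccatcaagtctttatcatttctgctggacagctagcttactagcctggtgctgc
Ffar4 upstream, chr19:38096829-38097070, plus strand: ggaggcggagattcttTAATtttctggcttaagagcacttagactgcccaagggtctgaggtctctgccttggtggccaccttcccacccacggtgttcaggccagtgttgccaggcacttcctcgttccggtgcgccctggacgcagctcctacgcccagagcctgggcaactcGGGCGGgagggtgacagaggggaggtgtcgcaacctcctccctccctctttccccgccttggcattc
Ffar2 upstream, chr7:30823776-30824025, minus strand: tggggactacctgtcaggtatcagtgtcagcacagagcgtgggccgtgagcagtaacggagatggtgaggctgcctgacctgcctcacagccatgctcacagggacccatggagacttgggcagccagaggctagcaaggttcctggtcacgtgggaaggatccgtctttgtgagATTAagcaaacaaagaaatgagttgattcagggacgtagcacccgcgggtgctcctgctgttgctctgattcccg
Gpr119 upstream, chrX:48674479-48674728, minus strand: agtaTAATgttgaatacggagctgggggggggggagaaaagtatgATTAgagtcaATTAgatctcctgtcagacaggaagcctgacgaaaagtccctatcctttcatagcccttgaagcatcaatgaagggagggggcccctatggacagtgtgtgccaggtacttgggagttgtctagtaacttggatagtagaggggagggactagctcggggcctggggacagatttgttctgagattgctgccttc
TGACGTCA occurred once, upstream of Ffar3, where 1.55% of 32851 RefSeq mouse promoters hold it in a window of the same 250 bases. TAAT occurred 3 times upstream of Gpr119, once each upstream of Ffar2 and Ffar4, and not in the windows of Ffar1 and Ffar3. It is common, being found in 54.9% of promoters over 250 bases. GGGCGG occurred upstream of Ffar4 only, against 31.6% of promoters over the same 242 bases, and TATAAA in none of the 5 windows. The Ffar1 window is short, at 156 bases, because the RefSeq window was trimmed by 94 bases. These matches are a description of letters and not of bound factors.

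**Figure D1:**
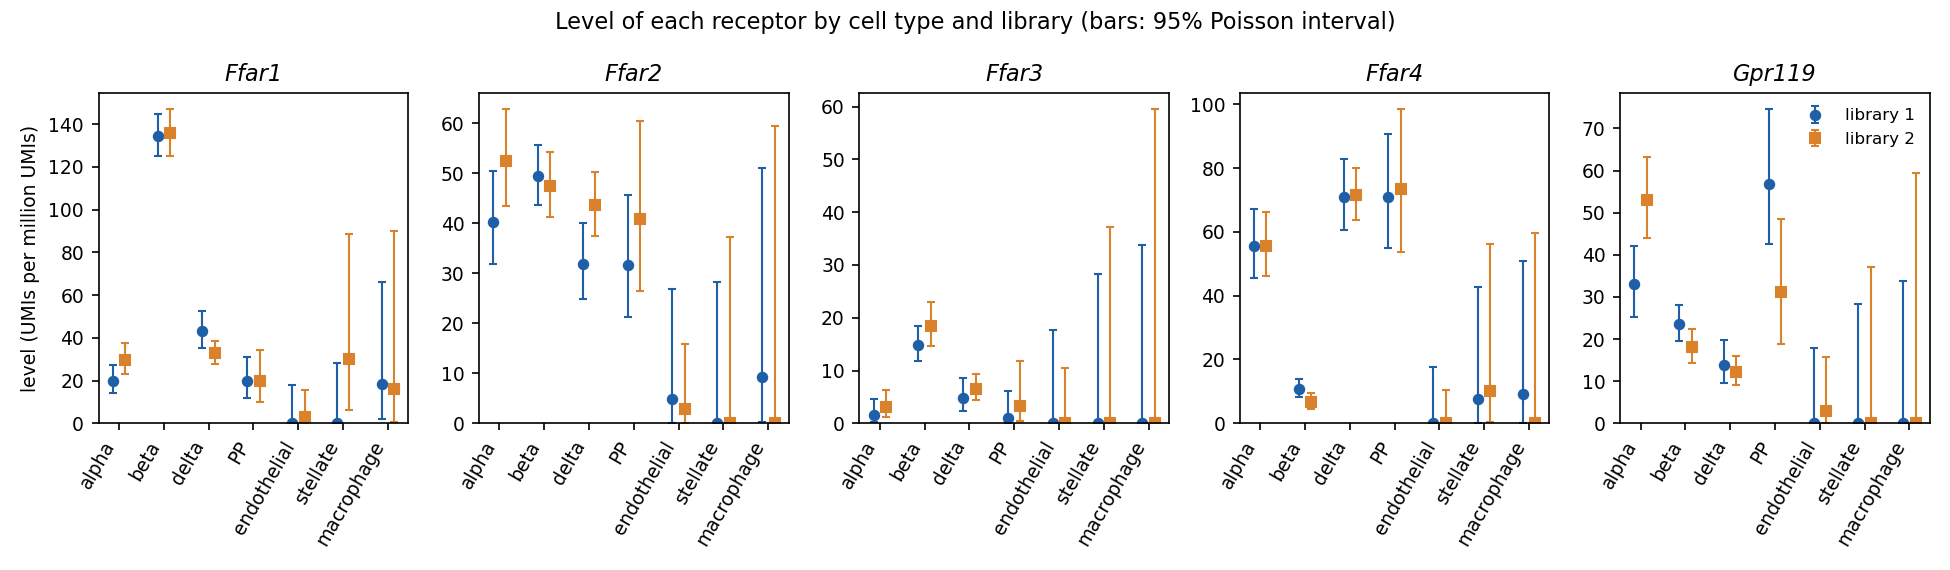
Level of each receptor (vertical axis, CPM, a separate scale per gene) in 7 cell types and 2 libraries. Points are single libraries and bars are 95% Poisson intervals, so that Ffar1 stands at 134 and 136 CPM in beta cells and at no more than 43.1 CPM in the other endocrine types.

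Ffar1, the long-chain fatty acid receptor tied to insulin secretion, was a gene of beta cells. It had 732 UMIs in beta cells of replicate 1 and 595 in replicate 2, or 82.3% and 72.5% of all its UMIs in kept cells. Over all genes, beta cells held 5442462 of 11012364 UMIs of kept cells in replicate 1 and 4387214 of 12092393 in replicate 2. The level of Ffar1 was 134 and 136 CPM in beta cells, 43.1 and 32.8 CPM in delta cells, 19.9 and 29.8 CPM in alpha cells, and 19.7 and 19.6 CPM in PP cells. The beta levels did not overlap with those of any other type, whereas the values of alpha and PP cells overlapped in their Poisson intervals in both libraries. The test used TMM scaling, whose factors were near 0.8 in alpha and PP cells and 1.08 in beta cells, so fitted fold changes differ from the ratios of CPM. Ffar1 was lower in alpha than in beta cells, with a log2 fold change of -2.02 ± 0.25 (± SE, 2 libraries) and adjusted p = 3.29e-07 in edgeR's quasi-likelihood test with Benjamini-Hochberg adjustment over 13265 genes. Against beta cells, it was -1.81 ± 0.23 in delta cells (edgeR adjusted p = 7.72e-07) and -2.37 ± 0.31 in PP cells (1.98e-06). Between delta and alpha cells it was 0.21 ± 0.27 (0.763), and the libraries had opposite signs, 0.65 and -0.16. Delta cluster 3, where Sst was at 153701 and 111202 CPM, held only 9.09% and 19.9% of the Ffar1 UMIs of the delta class and stood at 8.80 and 17.0 CPM, below alpha cells. With delta cells limited to it, and the other classes limited as described further on, delta minus alpha was -1.15 (edgeR adjusted p = 0.00754).

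Ffar4, the other long-chain fatty acid receptor, had the reverse pattern. Its level was 71.0 and 71.5 CPM in delta cells, 71.1 and 73.6 CPM in PP cells, and 55.5 and 55.6 CPM in alpha cells, but 10.7 and 6.61 CPM in beta cells. All 6 values of the non-beta endocrine types lay above both beta values. Ffar4 was higher than in beta cells by 3.08 ± 0.25 log2 in alpha cells, 3.07 ± 0.24 in delta cells and 3.44 ± 0.28 in PP cells, with edgeR adjusted p = 1.77e-10, 1.65e-10 and 3.04e-10. The 3 types did not pass the test against each other. Delta cells differed from alpha cells by a fold of 0.990 (95% interval 0.740 to 1.32), PP cells from alpha cells by 1.28 (0.917 to 1.79) and PP cells from delta cells by 1.29 (0.936 to 1.79). The fold of 0.990 depends on scaling, as both delta values in CPM lay above both alpha values. The TMM factors were 0.798 and 0.815 in alpha and 1.11 and 1.01 in delta cells. It also covers a mixed class: delta cluster 3 alone stood at 94.9 and 107 CPM.

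Ffar2, a receptor for short-chain fatty acids, was found in all 4 endocrine types, at 31.7 to 52.5 CPM. Replicate 1 had 49.4 CPM in beta, 40.3 in alpha, 31.8 in delta and 31.7 in PP cells, and replicate 2 had 47.4, 52.5, 43.5 and 40.9 CPM. The libraries disagreed on the first place, beta in replicate 1 and alpha in replicate 2, and the counting intervals overlapped for most pairs. No pair of endocrine types passed the test for Ffar2. The nearest was delta against alpha cells, at -0.66 ± 0.23 log2 with edgeR adjusted p = 0.0591. That is a fold of 0.632 (95% interval 0.465 to 0.858), lower in delta cells in both libraries. The alternative without the highest doublet scores called this difference. Both delta values also lay below both beta values. The fold of PP over beta cells was 0.975 (95% interval 0.676 to 1.41). A difference that did not pass does not show equal levels.

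Ffar3, the second short-chain fatty acid receptor, which signals through Gi, was sparse and highest in beta cells. It had 81 UMIs in beta cells of each library, or 14.9 and 18.5 CPM, against 4.79 and 6.52 CPM in delta, 1.57 and 3.06 CPM in alpha, and 1.09 and 3.27 CPM in PP cells. Beta levels stood above all others in both libraries, and alpha and PP levels overlapped. Ffar3 passed the filter on low counts through its 2 beta sums alone, so that its differences from beta cells are in part set by the filter. It was lower than in beta cells by a log2 fold change of -2.41 ± 0.49 in alpha cells (edgeR adjusted p = 0.00064) and -1.51 ± 0.38 in delta cells (0.00608). The delta difference did not pass with DESeq2 (adjusted p = 0.103) or in edgeR without the library as a replicate block (0.0740). In PP cells only 3 UMIs were counted in all, which gives a beta level in CPM 8.38-fold higher with a counting interval of 2.82 to 41.1; edgeR's adjusted p was 0.0111 and that of DESeq2 0.0543.

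Gpr119, the Gs-coupled receptor, was highest in PP and alpha cells and lowest in delta cells. Its level was 56.9 and 31.1 CPM in PP, 33.0 and 52.9 CPM in alpha, 23.5 and 18.0 CPM in beta, and 13.9 and 12.1 CPM in delta cells. The values of PP and alpha cells overlapped and changed order between libraries, with log2 fold changes of 0.75 and -0.77 for PP over alpha cells. Beta values lay below both of them and above delta values in each library. Gpr119 was higher than in beta cells by 1.48 ± 0.27 log2 in alpha cells (edgeR adjusted p = 0.000121) and by 1.52 ± 0.31 in PP cells (0.000834). It was lower in delta than in alpha cells, at -2.12 ± 0.29 log2 (edgeR adjusted p = 5.84e-06), and higher in PP than in delta cells by 2.16 ± 0.34 (0.000104). Delta against beta cells did not pass, at -0.64 ± 0.29 (0.172), and 3 alternatives called it: limited clusters (-2.19, edgeR adjusted p = 0.000104), cells led by their type's hormone (-1.64, 0.00628) and cells without the highest doublet scores (-0.93, 0.0474).

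**Figure D2:**
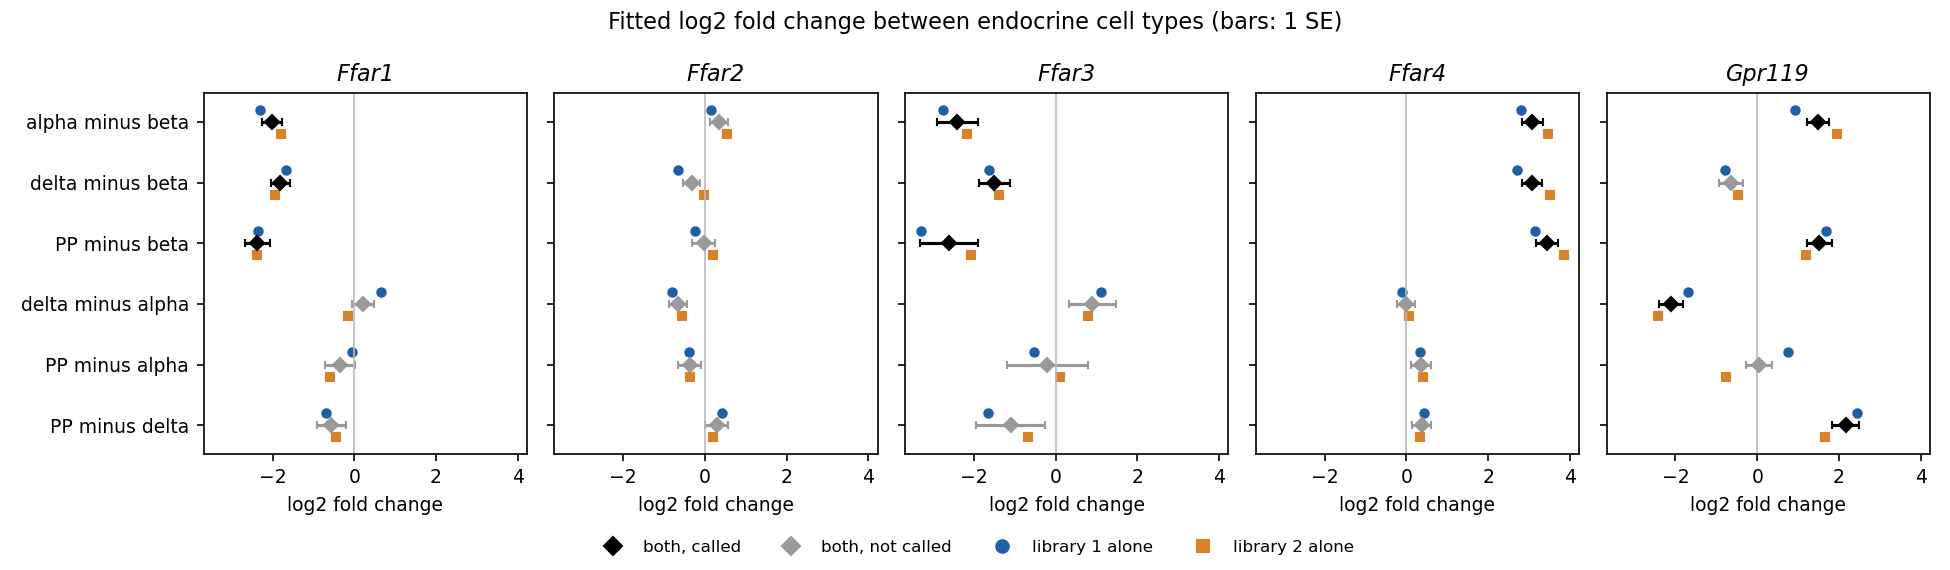
Fitted log2 fold change of each receptor (horizontal axis) for the 6 pairs of endocrine types (vertical axis). Diamonds are the fit on both libraries with 1 SE, black where the adjusted p is under 0.05 and grey otherwise, and coloured points are the libraries alone; the black diamonds of Ffar1 and Ffar3 lie left of 0 and those of Ffar4 right of it.

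Ffar3 is left out of the following counts, since it passed the filter through the beta sums, where it is high. Of the other 4 receptors, 3 passed the test between alpha and beta cells, where 19% of all genes tested did. Ffar4 and Gpr119 were higher in alpha cells, as were 9.13% of all genes, and Ffar1 lower, as were 9.91%. For delta against beta cells 2 of 4 passed (13.8% of all genes), Ffar4 being higher (8.78%) and Ffar1 lower (5.01%). For PP against beta cells 3 of 4 passed (17.3%), Ffar4 and Gpr119 being higher (8.89%) and Ffar1 lower (8.43%). Gpr119 alone passed for delta against alpha cells (10.5% of all genes, 6.99% higher and 3.56% lower) and for PP against delta cells (7.59%, 3.23% higher and 4.36% lower). Between PP and alpha cells 0 of 4 passed in edgeR, where 5.01% of all genes did, 2.83% higher and 2.17% lower; none had an unadjusted p under 0.05 and none passed with DESeq2. The comparisons with beta cells share the beta sums, so their values are given side by side and not as independent evidence of one another.

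Few UMIs of the receptors were found outside the endocrine cells, and for Ffar1 some levels there overlapped with those of alpha and PP cells. Over endothelial and stellate cells of both libraries, 4 UMIs of Ffar1, 2 of Ffar2, 2 of Ffar4, 1 of Gpr119 and 0 of Ffar3 were counted in 790401 UMIs. Ffar2, Ffar3 and Gpr119 reached the cutoff of the low-count filter in 0 endothelial and 0 stellate sums, and Ffar1 in 1 stellate sum. Their differences outside the endocrine types are therefore in part set by the filter. The mean of the 4 endocrine types exceeded the non-endocrine types in edgeR's test for Ffar1, Ffar2, Ffar4 and Gpr119, where 30.7% of all genes differed, 13.6% being higher and 17.1% lower outside the endocrine types. As most of these fits rest on 3 UMIs or fewer, counting ratios are more direct: the endocrine level was 17.6-fold higher for Ffar2 (95% counting interval 4.87 to 146), 16.1-fold for Ffar4 (4.43 to 133) and 19.5-fold for Gpr119 (3.48 to 771). For Ffar3 it was at least 2.55-fold higher, with 3 UMIs taken as the limit that a count of 0 allows over both libraries. Ffar3 had an edgeR adjusted p of 0.0480, and its call was lost in 10 alternatives, at 0.0549 to 0.217 (DESeq2 0.106). Ffar1 had a log2 fold change of -3.31 ± 0.56 outside the endocrine types (edgeR adjusted p = 3.12e-05), with 0 UMIs in replicate 1 and 4 in replicate 2, of which 3 were in 27 stellate cells. Replicate 2 alone gave -2.38. The 3 stellate UMIs are 30.2 CPM (95% Poisson interval 6.23 to 88.4), which overlaps the 29.8 and 19.6 CPM of alpha and PP cells in that library. Macrophages, with 62 and 7 cells, were too few to test and held 2 and 1 UMIs of Ffar1 (18.3 and 16.1 CPM, within the counting error of PP cells), 1 and 0 of Ffar2 and Ffar4, and none of Ffar3 and Gpr119.

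**Figure D3:**
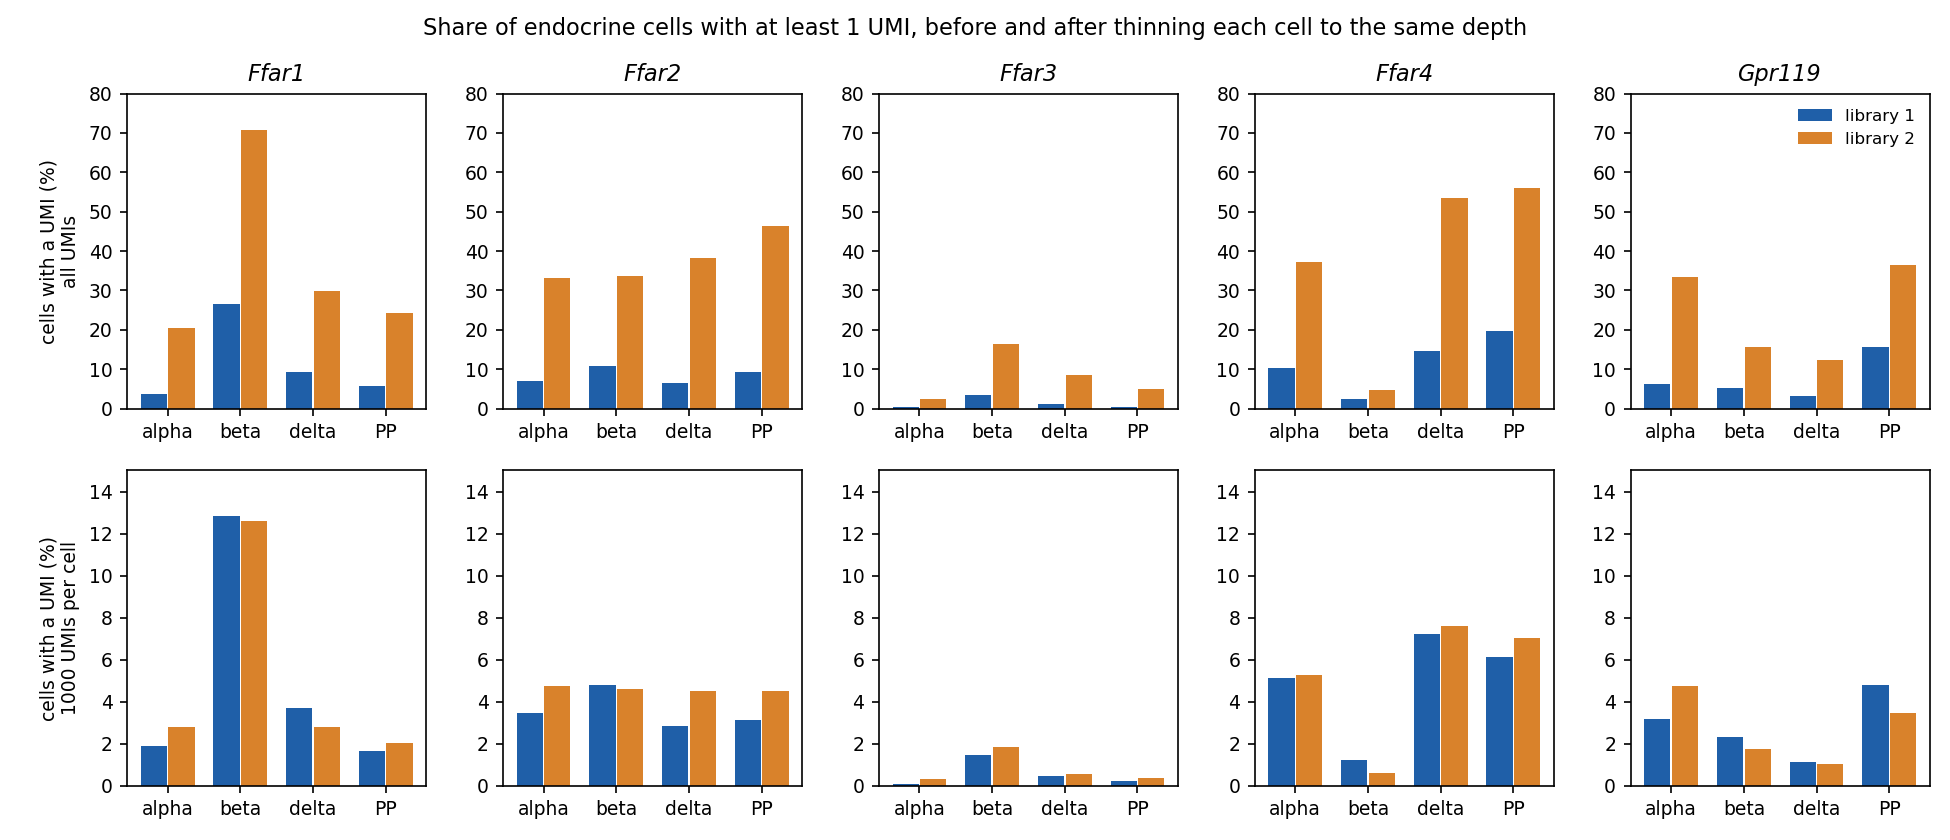
Percent of endocrine cells with at least 1 UMI of each receptor (vertical axis) by type and library, with all UMIs in the upper row and with each cell thinned to 1000 UMIs in the lower row. The libraries stand closer together in the lower row than in the upper one, most of all for Ffar1 in beta cells, which goes from 26.4% and 70.8% to 12.8% and 12.6%. Some still differ in the lower row, such as Ffar2 in delta cells at 2.82% and 4.48% and Gpr119 in alpha cells at 3.16% and 4.74%.

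The share of cells with a UMI followed sequencing depth, so it was compared at 1000 UMIs per cell. A UMI of Ffar1 was seen in 26.4% of beta cells in replicate 1 (exact binomial 95% interval 24.6 to 28.3%) and 70.8% in replicate 2 (66.3 to 75.0%). After thinning, which left out 95 shallower beta cells of replicate 1 and none of replicate 2, these shares were 12.8% and 12.6%. In replicate 1 thinning also left out 165 of 965 delta, 59 of 961 alpha and 1 of 283 PP cells, and in replicate 2 none. The thinned delta shares of replicate 1 thus describe the deeper cells of that class. The thinned share of Ffar1 was 3.69% and 2.81% in delta, 1.90% and 2.80% in alpha, and 1.65% and 2.02% in PP cells. Ffar4 was seen in 7.23% and 7.61% of delta, 6.12% and 7.04% of PP, 5.11% and 5.25% of alpha, and 1.23% and 0.612% of beta cells. For Ffar2 the thinned shares ran from 2.82% to 4.81% over all 4 endocrine types. Ffar3 reached 1.47% and 1.84% of beta cells and stayed at or under 0.542% elsewhere. Gpr119 ran from 1.02% in delta cells to 4.77% in PP cells. Endothelial cells held few UMIs of these receptors. In endothelial cluster 11, without the duct-led cluster 15, Ffar1 had 0 UMIs in 129 cells of replicate 1 (which allows up to 2.82% of cells by the exact interval) and in 10 cells of replicate 2 (up to 30.8%), at median depths of 1075 and 5406.5 UMIs. The single Ffar1 UMI of the endothelial class in replicate 2 was in cluster 15. Ffar2 had 1 UMI in cluster 11 of replicate 1 (5.87 CPM, 95% Poisson interval 0.149 to 32.7) and 0 in replicate 2.

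UMIs of more than 1 receptor were found in the same cell, more often in the deeper library. At least 1 of the 5 receptors was seen in 40.8% of beta cells of replicate 1 and 85.5% of replicate 2, and at least 2 in 7.18% and 45.7%. In PP cells of replicate 2, 58.5% of 41 cells held 2 or more. Of the beta cells with a UMI of Ffar3, 30 of 79 in replicate 1 (exact interval 27.3 to 49.6%) and 55 of 71 in replicate 2 (77.5%, 66.0 to 86.5%) also held Ffar1. Over all beta cells the shares with Ffar1 were 26.4% and 70.8%, so the share of all cells lies just below the interval in replicate 1 and inside it in replicate 2. For Ffar2 and Ffar1 the corresponding values in beta cells were 28% and 72.6%, close to those of all beta cells. The exact intervals cover counting error over the cells of a single library. These shares were not thinned, and cells with more UMIs are more likely to hold a UMI of any receptor. They therefore cannot tell shared expression from depth.

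**Figure D4:**
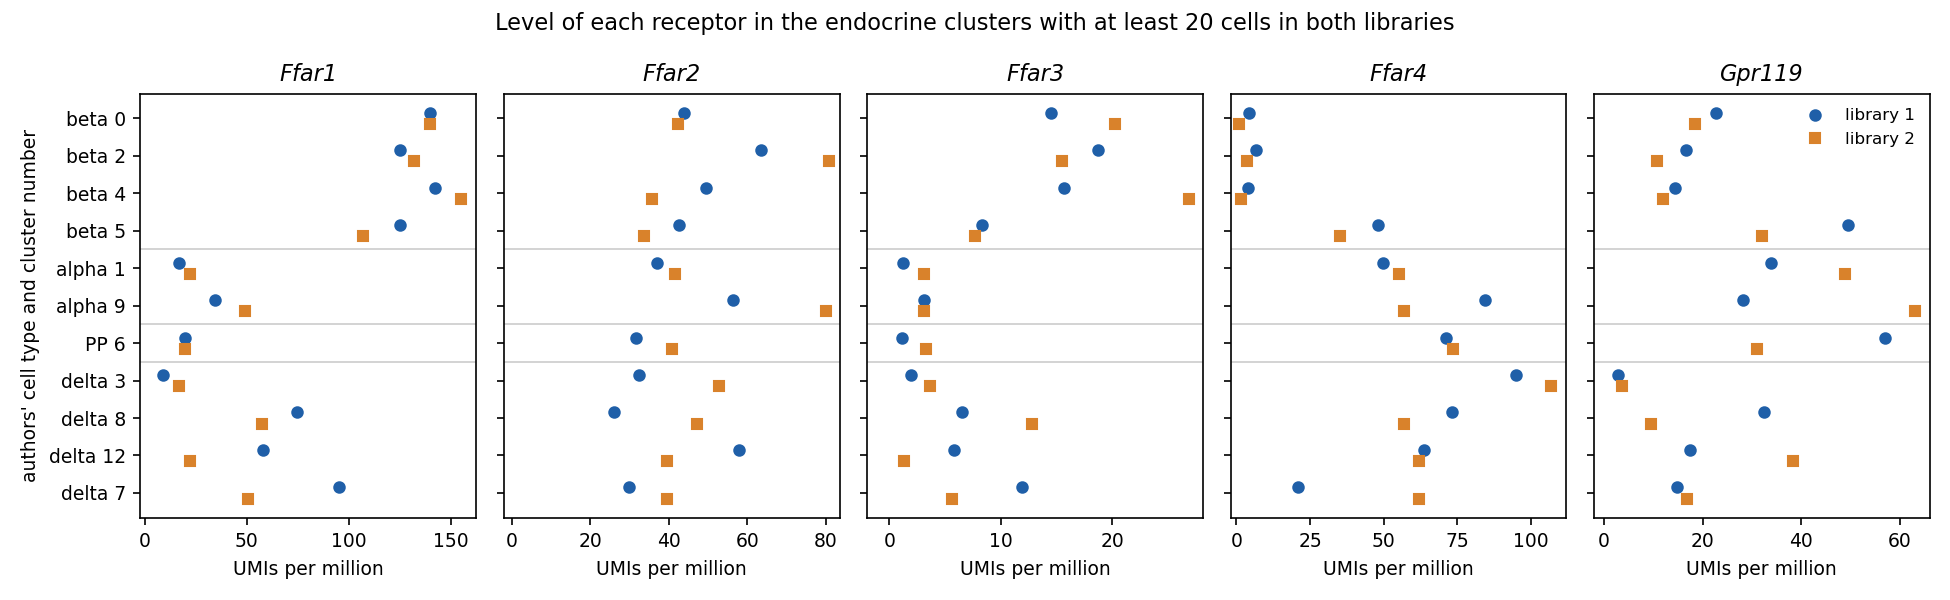
Level of each receptor (horizontal axis, CPM) in the endocrine clusters of the authors with at least 20 cells in both libraries (vertical axis, type and cluster number). Points are libraries; Ffar4 stands at 48.2 and 35.1 CPM in beta cluster 5 and at or under 6.48 CPM in beta clusters 0, 2 and 4.

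Within the beta class, Ffar1 was even and Ffar4 was not. Ffar1 lay between 107 and 155 CPM in the 4 beta clusters. Of the Ffar4 UMIs of beta cells, 35 of 58 in replicate 1 and 23 of 29 in replicate 2 came from cluster 5, which held 315 and 56 cells. In cluster 5 Ffar4 stood at 48.2 and 35.1 CPM and Gpr119 at 49.5 and 32.1 CPM, against 0.901 to 6.48 CPM and 10.7 to 22.7 CPM in clusters 0, 2 and 4. Cluster 5 also held Ppy at 6924 and 16715 CPM and Sst at 1745 and 3165 CPM, above the other beta clusters, and the beta marker Slc2a2 at 581 and 281 CPM, below them. Ffar3 was lowest in cluster 5 among the beta clusters, at 8.26 and 7.64 CPM. In an alternative limited to beta clusters 0, 2 and 4, alpha 1 and 9, delta 3 and PP 6, without the duct-led endothelial cluster and with stellate cells unchanged, Ffar4 in beta cells fell to 4.88 and 1.61 CPM, and its log2 fold change was 4.42 ± 0.29 for alpha over beta cells.

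Within the delta class the clusters differed more. Cluster 3, with Sst at 153701 and 111202 CPM, had Ffar1 at 8.80 and 17.0 CPM and Gpr119 at 2.94 and 3.64 CPM, from 3 and 6 UMIs. Cluster 8, which holds Iapp and Sst together, had Ffar1 at 74.6 and 57.7 CPM and Gpr119 at 32.4 and 9.61 CPM. Ffar4 was highest in cluster 3, at 94.9 and 107 CPM, against 73.0 and 56.9 CPM in cluster 8. Cluster 7 had Ffar1 at 95.2 and 50.7 CPM, beside Slc2a2 at 806 and 214 CPM. With the limited clusters named above, which take delta cluster 3 and leave out beta cluster 5, Gpr119 was lower than in beta cells at -2.19 log2 (edgeR adjusted p = 0.000104), which was not called over the whole class. In alpha cells, cluster 9 had more Ffar1 than cluster 1 in both libraries, 34.4 and 49.2 CPM against 17.0 and 22.0 CPM, and more Ffar2, 56.3 and 79.9 CPM against 37.1 and 41.6 CPM. These clusters were not tested against each other.

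**Figure D5:**
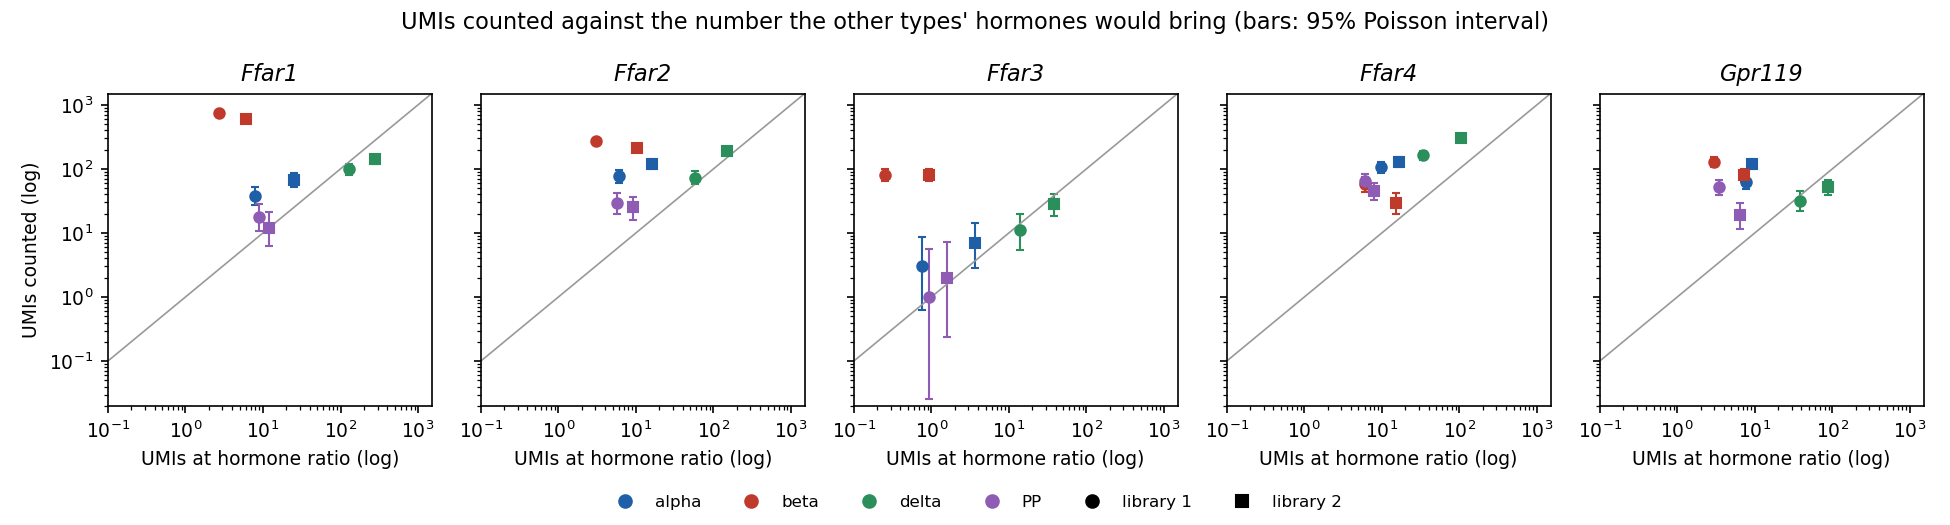
UMIs counted for each receptor (vertical log axis, 95% Poisson interval) against the UMIs that the hormones of the other 3 endocrine types, found in the same cells, would bring at those types' own ratios (horizontal log axis). Points on the line are equal; Ffar1, Ffar3 and Gpr119 in delta cells lie at or under it, and Ffar2 and Ffar4 in alpha and PP cells above it.

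Droplets can carry RNA from other cells, and Gcg, Iapp, Sst and Ppy were found in every endocrine type. If their UMIs outside their own type had come with the receptors of that type in its own ratio, alpha cells would hold 7.98 and 25.5 UMIs of Ffar1, and 38 and 68 were counted. In PP cells the corresponding numbers were 8.78 and 11.9 for 18 and 12 counted, so in replicate 2 Ffar1 in PP cells was at that level. In delta cells 129 and 279 UMIs of Ffar1 would be brought and 99 and 141 were counted. Gpr119 in delta cells was at 38.7 and 87.7 against 32 and 52 counted, and Ffar3 at 13.9 and 38 against 11 and 28. The number is too high where a cell makes the hormone itself, as delta cells may do for Iapp: in delta cluster 3 Iapp alone would bring 40.2 and 84.0 UMIs of Ffar1 where 9 and 28 were counted. By Slc2a2, a glucose transporter gene of beta cells, 6.25 and 26.3 would be brought there, within the counting intervals of 9 and 28.

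Ffar4 and Ffar2 stood above this level in most types. Ffar4 was counted at 106 and 127 UMIs in alpha cells against 9.77 and 16.9, at 163 and 307 in delta cells against 33.5 and 104, and at 65 and 45 in PP cells against 6.08 and 8.05. The 58 and 29 UMIs of Ffar4 in beta cells compared with 6.11 and 15.4. Only 23 and 6 of these UMIs were in beta clusters 0, 2 and 4, and the rest were in cluster 5, which also held Ppy and Sst. The hormone level was not computed for beta clusters apart, so the comparison covers the whole class only. Ffar2 in delta cells had 73 and 187 UMIs against 57.5 and 149, above the level beyond its counting interval in replicate 2 only, and it was above in the other endocrine types. Ffar3 in alpha, delta and PP cells did not exceed the hormone level beyond its counting interval, with 3 and 7 UMIs in alpha cells against 0.756 and 3.61. In endothelial, stellate and macrophage cells no receptor exceeded it beyond the counting interval. For Ffar1, 3 UMIs in stellate cells of replicate 2 compared with 1.05, and 2 in macrophages of replicate 1 with 1.99. Over the whole delta class, this measure cannot tell Ffar1, Ffar3 and Gpr119 apart from RNA of other types. Its number is too high there if delta cells make another type's hormone themselves. In delta cluster 12, with Gcg at 147578 and 92116 CPM, 10 and 17 UMIs of Ffar1 were counted against 3.12 and 25.5 by Iapp and 0.391 and 6.32 by Slc2a2, the 0.391 resting on 3 Slc2a2 UMIs, so the markers differ for replicate 2.

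Among UMIs in the transcript tables, most of each receptor's were assigned to 1 annotated transcript. Ffar1, Ffar4 and Gpr119 have a single transcript in GENCODE M21, with 1729, 904 and 545 UMIs in the transcript tables. Ffar3-201 had 211 UMIs and Ffar3-202 had 3, all 3 in beta cells. Of 6 annotated Ffar2 transcripts, Ffar2-201 had 668 UMIs (96.3%), Ffar2-202, which starts in a downstream first exon, 24 (3.46%), and a pair of others had 1 each. The transcript tables held only 70.0% as many UMIs of Ffar2 as the gene tables, against 99.6% to 101% for the other 4, so part of the Ffar2 molecules had no assigned transcript. The share of Ffar2-201 per library was 96.6% and 94.9% in beta, 98.3% and 96.3% in alpha, 94.4% and 96.2% in delta and 96.3% in PP cells of replicate 1, where all 18 UMIs of replicate 2 were Ffar2-201. With a minimum share of 5% of the gene's UMIs no receptor kept 2 transcripts, so none could be tested for isoform use. Without it Ffar2-202 entered, with 12 UMIs in beta, 4 in alpha, 7 in delta and 1 in PP cells. No difference from beta cells was called in alpha, delta or PP cells (diffSpliceDGE adjusted p = 1.00 in each). With so few UMIs the test could hardly call any difference.

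Genes whose levels ran most like each receptor over the 12 sums were named by Pearson r of log2(CPM + 1), with each library's mean removed, among 6962 genes. The sums share libraries and cell types, so r is a description. They include the endothelial and stellate sums, where few UMIs of the receptors were counted. A high r therefore also takes in the difference between endocrine and other cells. For Ffar1 they were Arfgef3, Kif1bp, Gipr (the receptor of the incretin GIP), Cln6 and Prune2, with r from 0.95 to 0.97. Gipr had 114 and 150 CPM in beta cells, 25.8 and 25.1 in alpha and 64.2 and 59.4 in delta cells. For Ffar4 they were Tmem59l, Calb1, Gria2, Gc and Nap1l5 (0.97 to 0.99), and Calb1, which encodes a calcium buffer, had 23.9 and 19.3 CPM in beta and 144 and 149 CPM in alpha cells. For Ffar2 they were Mdm1, Lrp11, Unc13a, Lrrc73 and Atp5l (0.97 to 0.98), for Ffar3 Uggt1, Cog1, Pcyt2, Madd and Scly (0.96 to 0.97), and for Gpr119 Fbxo44, Zfp950, Spint2, H2-Q2 and Ugt2b34 (0.93 to 0.96). Among the receptors themselves, Ffar1 with Ffar3 had r = 0.83, Ffar2 with Gpr119 0.91, and Ffar3 with Ffar4 0.41. Ffar1 with Ffar4 had r = 0.55, although their levels ran in reverse between beta cells and the other endocrine types.

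Genes that act with the receptors differed between types in part. Of 22 tested genes of Gq and Gs signalling, 4 were higher and 6 lower in alpha than in beta cells, where 9.13% of all genes were higher and 9.91% lower, with a median log2 fold change of -0.02 against 0.02 over all genes. Gnas, which encodes the Gs alpha subunit that GPR119 uses, was higher in alpha than in beta cells by 2.25 ± 0.32 log2 (edgeR adjusted p = 3.7e-06), at 2860 and 2706 against 817 and 753 CPM. Itpr1, an IP3 receptor of the Gq route, was higher in alpha cells by 2.45 ± 0.21 (edgeR adjusted p = 5.14e-10) and in delta cells by 1.87 ± 0.21 (1.04e-07). Prkcb, a protein kinase C, was lower in delta and PP than in beta cells, at -1.03 ± 0.20 and -2.49 ± 0.33 (edgeR adjusted p = 0.000507 and 1.7e-06). Of these 22 genes, 3 were higher and 5 lower in delta, and 2 higher and 7 lower in PP, than in beta cells (all genes: 8.78% and 5.01% in delta, 8.89% and 8.43% in PP), with medians of -0.10 and -0.43, against 0.0039 and -0.03 over all genes.

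Of 14 genes of Gi proteins, arrestins and other regulators of receptor signals, 3 were higher and 4 lower in alpha than in beta cells, 2 and 1 in delta, and 1 and 2 in PP cells, where 19%, 13.8% and 17.3% of all genes passed, with medians of -0.02, -0.11 and -0.30 (all genes 0.02, 0.0039 and -0.03). Rgs4, which speeds the shutdown of Gq and Gi, was higher than in beta cells by 4.27 ± 0.29 log2 in alpha, 3.91 ± 0.29 in delta and 4.17 ± 0.33 in PP cells, with edgeR adjusted p = 3.82e-12, 1.92e-11 and 2.01e-10. Its level was 4.26 and 3.68 CPM in beta cells and between 43.2 and 76.1 CPM in the other 3 types. Grk5, a receptor kinase, went the other way, at -2.08 ± 0.31 in alpha, -1.80 ± 0.26 in delta and -2.95 ± 0.47 in PP cells (edgeR adjusted p = 5.76e-06, 5.39e-06 and 3.57e-05).

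Genes that release, make or take up the ligands followed. Of 17 tested lipases and ligand-making enzymes, 2 were higher and 3 lower in alpha, 2 and 1 in delta, and 0 in PP cells, against beta cells, where 19%, 13.8% and 17.3% of all genes passed, with medians of 0.03, -0.04 and -0.0094. Lpl, the lipase that frees fatty acids from lipoproteins, was higher in alpha than in beta cells by 1.73 ± 0.30 log2 (edgeR adjusted p = 6.56e-05), at 349 and 352 against 175 and 115 CPM. Abhd6, a monoacylglycerol lipase, was lower in alpha cells at -1.02 ± 0.25 (edgeR adjusted p = 0.00357). Of 15 tested genes of fatty acid uptake and activation, 2 were higher and 2 lower in alpha than in beta cells, 3 and 0 in delta, and 3 and 1 in PP cells, where 19%, 13.8% and 17.3% of all genes passed, with medians of -0.13, -0.18 and -0.54. Cd36, a fatty acid transporter, had 20.5 and 14.5 CPM in alpha cells and 0 UMIs in beta cells of both libraries, and Fabp3, a fatty acid carrier, was highest in delta cells at 38.7 and 50.0 CPM.

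Other lipid receptors were often too low to test. Of 30 listed receptors of the cell surface, 11 could be tested, and 0 were higher and 2 lower in alpha than in beta cells, 2 and 0 in delta, and 0 and 0 in PP cells, where 19%, 13.8% and 17.3% of all genes passed, with medians of -0.14, 1.10 and -0.45. Cnr1, the cannabinoid receptor, stood at 28.2 and 35.5 CPM in delta, 7.96 and 8.73 in beta, and at or under 2.20 CPM in alpha and PP cells, and was higher in delta than in beta cells by 1.95 ± 0.30 log2 (edgeR adjusted p = 2.06e-05). Of 11 tested nuclear lipid receptors, 2 were higher and 3 lower in alpha than in beta cells, 0 and 2 in delta, and 0 and 1 in PP cells, where 19%, 13.8% and 17.3% of all genes passed, with medians of -0.15, -0.54 and 0.20. Nr1h3, the oxysterol receptor LXR alpha, was lower than in beta cells, at -3.91 ± 0.50 log2 in alpha and -1.73 ± 0.31 in delta cells (edgeR adjusted p = 5.4e-07 and 0.000163), with 30.7 and 29.2 CPM in beta, 9.68 and 7.99 CPM in delta, and 1.58 and 1.32 CPM in alpha cells.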

How the data were processed

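The authors deposited raw UMI counts per gene and per transcript for each cell barcode, with a cell table that gives each kept cell a cluster and type. Per the submitters' processing notes the build was mm10 and Seurat was used; the aligner, the counter and the use of strand are not given in the sources used here, and the tables are marked as a subset of an unstated kind. Barcodes outside the authors' cell table (1581 and 1031) were left out of all comparisons. UMIs were summed by library and type, using the 6 types that reach 20 cells in both libraries. The 12 sums were fitted in edgeR 4.0.16 (TMM scaling, filterByExpr, quasi-likelihood test, Benjamini-Hochberg at 0.05 over all genes) with type and library as terms; the library is a block because each one supplies every type from 1 preparation of cells. That leaves 5 residual degrees of freedom. SE is the size of the log2 fold change divided by the square root of F, and fold intervals use 1.96 SE. CPM (per 1000000 UMIs) use all UMIs of the summed cells, or, for genes other than the receptors and cluster hormones, those of tested genes. Isoform use was tested with diffSpliceDGE (10 UMIs and 5% of the gene's UMIs). Poisson, binomial and ratio intervals are 95% and cover counting error only. Cells were thinned to 1000 UMIs by the expected share of cells that keep a UMI.

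The receptors and gene lists were chosen with earlier results of these data known. Listed genes were named by up to 3 smallest adjusted p per list and comparison, from which the text takes a part, and like genes as the 5 with the highest r at a mean of at least 20 CPM, leaving out predicted genes, for receptors with at least 50 UMIs (all 5). Scrublet (scanpy 1.11.5) called 6 cells (0.125%) and 13 cells (1.19%) as doublets, too few in replicate 1 to rely on, so an alternative left out the 6% with the highest scores. The scripts were tested on simulated data. Other alternatives used DESeq2 1.42.0, other scaling, filters, depths and cell sets. The comparison with RNA of other types by hormone and Slc2a2 ratios was added after the data were seen.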

Additional observations from a re-analysis of the deposited data

Results flagged for a closer look

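The receptors also had UMIs in barcodes that the authors' cell table leaves out, which no comparison used: 1581 barcodes with a median of 651 UMIs in replicate 1 and 1031 with a median of 3178 UMIs in replicate 2. Ffar1 had 219 and 391 UMIs there, Ffar2 81 and 90, Ffar3 31 and 72, Ffar4 51 and 15, and Gpr119 33 and 26. As levels, Ffar1 was 1.38 and 1.46 times and Ffar3 1.81 and 1.87 times as high in the left-out as in the kept barcodes. Ffar4 was 0.724 and 0.0902 times as high, Gpr119 0.671 and 0.293 times, and Ffar2 1.01 and 0.509 times. The reason for leaving them out was not stated, and no cause was tested.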

How the results depend on the processing

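Of the 18 differences called for a receptor, all but 3 kept their direction and call under every alternative that gives a test. The 3 exceptions were Ffar3 between delta and beta cells, between PP and beta cells, and outside the endocrine cells. The 18 include calls of Ffar3, which passed the low-count filter through its beta sums alone. They also include calls outside the endocrine cells for Ffar2 and Gpr119, which reached its cutoff in endocrine sums alone. Those calls are in part set by the filter. Without the library as a replicate block the calls over all genes fell from 2525 to 1281 for alpha against beta cells, from 1829 to 862 for delta against beta, from 2297 to 1149 for PP against beta, from 1399 to 633 for delta against alpha, from 664 to 61 for PP against alpha and from 1007 to 231 for PP against delta; the share of higher calls went from 63.7% to 77.3% for delta against beta and from 42.5% to 30.7% for PP against delta. Ffar3 between delta and beta cells was then at -1.46 (adjusted p = 0.0740), and DESeq2 gave -1.51 (0.103) with 1195 calls. Without TMM scaling the median log2 fold change of all genes moved to -0.39 for alpha and -0.42 for PP against beta, 0.38 for delta against alpha and -0.44 for PP against delta. The calls became 4043 (17.5% higher, against 48.0%) for alpha against beta, 2375 (89.8%, against 66.3%) for delta against alpha and 1781 (10.1%, against 42.5%) for PP against delta, and 19.3% of the PP against beta calls were higher, against 51.3%. Uncalled differences that changed sign then were Ffar2 between alpha and beta (-0.079), Ffar4 between delta and alpha (0.37) and Ffar2 between PP and delta cells (-0.074).

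Ffar4 between delta and alpha cells, at -0.01, also changed sign with DESeq2 (0.0047), DESeq2 size factors (0.0064), no low-count filter (0.0057), clusters from transcripts (0.12), thinned libraries (0.048) and the highest doublet scores left out (0.015). The last setting called Gpr119 between delta and beta cells (-0.93, adjusted p = 0.0474) and Ffar2 between delta and alpha cells (-0.75, 0.0390). With beta clusters 0, 2 and 4, alpha 1 and 9, delta 3 and PP 6 only, Gpr119 between delta and beta was -2.19; Ffar1 -1.15 and Ffar4 0.60 between delta and alpha; Ffar1 0.81, Ffar2 -0.023 and Ffar4 -0.26 between PP and delta; and PP against alpha had 1197 calls. With cells led by their type's hormone these were -1.64 (0.00628), -0.62, 0.39, 0.15 for Ffar1 and -0.068 for Ffar4, and Gpr119 between PP and alpha cells was -0.12. Clusters from transcripts gave 0.17 for Ffar2 between PP and beta and -0.031 for Gpr119 between PP and alpha; thinned libraries gave 0.052 and -0.047. The causes were not tested. Leaving out either replicate gave values with no test: Ffar1 between PP and beta cells ran from -2.39 to -2.36, Ffar2 between PP and alpha from -0.38 to -0.36, and Ffar1 outside the endocrine cells from -9.26, without replicate 2, to -2.38. For Ffar3 outside the endocrine cells 10 alternatives lost the call. Values of Ffar3 outside beta cells are limited by few UMIs, and those of PP cells of replicate 2 and of non-endocrine cells by few cells.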
